A study of Mus musculus with 461 samples.

Results

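The Glis family was taken by symbol as Glis1 (ENSMUSG00000034762), Glis2 (ENSMUSG00000014303) and Glis3 (ENSMUSG00000052942), which are 3 of the 31673 genes of the deposited tables. The study followed single mouse cells through 7F reprogramming, in which a cocktail of Jdp2, Kdm2b, Map2k6, Glis1, Nanog, Esrrb and Sall4 turns fibroblasts toward pluripotent cells, so Glis1 is both a family member and an added factor. Each of the 461 samples was 1 cell captured on a Fluidigm C1 chip. All carried the label of OG2 transgenic embryonic fibroblasts, which hold a fluorescent reporter driven by Pou5f1 sequence, of mixed strain, with shares of 1/2 129SVJ, 3/8 C57B6 and 1/8 CBA. Fibroblasts were kept in medium with 10% FBS and reprogramming cells in iCD1 medium, and the groups are named by day, with 74 cells at D0, 58 at D1, 61 with the title prefix b1 and 58 with b2 at D3, 59 at D4, 84 at D5 and 67 at D7. The titles of the D0 cells also read 7F. The cocktail genes other than Glis1 were each found in 85 to 100% of the cells of either prefix at D0. The labels do not say when the factors were added relative to D0. Values against D0 therefore cannot be read as changes from untreated fibroblasts.

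What the title prefixes b1, b2 and b3 stand for is not explained in the labels. Cells are not replicates, so a set, defined as the cells that share a prefix and a day, served as the unit. Of the 10 sets, the 8 with 10 or more cells entered the tests, and the b1 sets of D5 (5 cells) and D7 (2 cells) were described only. Days 0 and 3 had a b1 and a b2 set, while D1, D5 and D7 were tested with b2 alone. All b3 cells came from D4 and all D4 cells from b3, and an effect of this day cannot be told apart from one of its prefix. The endothelial gene Pecam1, chosen after its values were seen, followed the prefix at D0 and D3. It was found in all 20 b1 D0 and all 61 b1 D3 cells, but in none of 54 b2 D0 and 9 of 58 b2 D3 cells. At D5 it was found in 40% of b1 and 36.7% of b2 cells. Over all genes tested, deviations of the b1 sets from the day means correlated at 0.08 between D0 and D3. P-values refer to the spread between sets and not between animals or derivations. Only D0 and D3 had 2 tested sets, which left 2 residual degrees of freedom. In the main fit, the variance of the typical gene was taken wholly from a trend over all genes (median prior degrees of freedom infinite). It was not taken from the spread of that gene between its own sets.

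Levels are given as TPM, a per-million share of transcripts that accounts for gene length, or as CPM, a per-million share of the counts of a set. CPM of the tested sets was scaled by TMM, the edgeR normalization factor of each set, which ran from 0.833 to 1.15. The b1 sets of D5 and D7 had no such factor, so their CPM is a plain share and not on quite the same scale. Total counts of the tested sets ran from 58.394 to 208.883 M (1 M is 1000000), and the median cell held between 0.983 M counts (D4) and 3.306 M (b2 D0). The 10 fibroblast markers summed to a mean of 997 TPM in b1 D0 and 806 TPM in b2 D0, with 1 of them, Lum, found in no b2 D0 cell, and to 82.7 TPM in b2 D7. The 10 pluripotent markers summed to 0.389 and 0.248 TPM at D0, where 7 and 8 of them were found in no cell, and to 10602.5 TPM in b2 D7. Epithelial markers (6 genes) ranged from 37.7 to 529 TPM over all sets, highest in b2 D7. Of the other lists, endothelial, immune, neural and skeletal muscle markers each stayed at or under 87.4 TPM in any set. Most of the neural sum in b2 D7 came from Tubb3, at 81.7 TPM and found in 40 of 65 cells. Sox10, of the same list, was found in no cell of b1 D0, b2 D0 or b2 D7, but in 4 of 61 b1 D3 cells. Summed over a set, fewer cells with a gene and less RNA per cell cannot be told apart, and shares of cells are therefore given for each Glis gene.

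Glis proteins are Krüppel-like zinc finger transcription factors, closely related to the Gli and Zic families, and bind DNA through a tandem array of zinc fingers. Glis1 is abundant in the egg and is known to promote the early steps of fibroblast reprogramming. Glis2 acts in kidney, where its loss causes nephronophthisis, a disease of the primary cilium, and Glis3 drives insulin gene transcription in pancreatic beta cells and also acts in the thyroid.

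Sequences of Glis1 are shown because the length that the deposited values imply for its RNA, given further on, lies at the size of the short transcript models and not of the full one. GENCODE M21 holds 6 Glis1 transcripts, of 432, 470, 501, 852, 2744 and 2906 bases, on the plus strand of chromosome 4 in GRCm38. The build the authors aligned to is not given in the sources used here. The first exon below is found in the noncoding 470-base transcript alone and the second in the noncoding 852-base transcript alone. The third is exon 6, a coding exon, of the 2906-base transcript and also stands in those of 470, 852 and 2744 bases. Capitals mark a zinc finger pattern, which is a codon for cysteine (TGT or TGC), 4 codons, such a codon again, 12 codons, a codon for histidine (CAT or CAC), 3 codons and again a codon for histidine.
Glis1 470-base transcript first exon, chr4:107581203-107581254: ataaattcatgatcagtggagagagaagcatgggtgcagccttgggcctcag
Glis1 852-base transcript exon 2, chr4:107618170-107618338: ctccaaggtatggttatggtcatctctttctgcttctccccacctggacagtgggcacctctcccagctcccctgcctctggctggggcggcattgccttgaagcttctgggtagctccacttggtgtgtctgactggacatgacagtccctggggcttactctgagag
Glis1 shared exon 6, chr4:107619554-107619664: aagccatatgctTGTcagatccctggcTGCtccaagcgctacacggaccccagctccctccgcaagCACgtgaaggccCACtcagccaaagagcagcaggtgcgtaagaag
The pattern was searched on the coding strand and is held by 2 of the 10 coding exons of the 2906-base transcript and by 0.127% of the 1570 coding exons in the annotation that are as long as exon 6. It was not found in the other 2 exons printed. Since the shared exon belongs to short and full models alike, a read within it does not tell them apart, nor does it tell an added coding sequence from the native gene.

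Glis1 was lowest at D5 and D7 in b2, and the prefixes differed. In CPM, it stood at 8.51 in b1 D0 and 4.09 in b2 D0. It was at 5.39 CPM in b2 D1, 13.4 CPM in b1 D3, 3.45 CPM in b2 D3 and 6.14 CPM in b3 D4. The b2 sets of D5 and D7 were at 1.01 and 0.239 CPM, below each of the 6 earlier sets. The b1 sets of 5 and 2 cells, which entered no test, were at 3.89 CPM at D5 and 9.86 CPM at D7, and neither was as low as the b2 set of its day. Within b2, D5 thus had 24.8% and D7 5.84% of the D0 level.

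None of the 5 comparisons of Glis1 with D0 passed an adjusted p of 0.05 (edgeR quasi-likelihood test, Benjamini-Hochberg over 22378 genes), while 1, at D7, was under 0.05 before adjustment. The fitted log2 fold change against D0 was -4.72 ± 2.23 (SE) at D7, with adjusted p = 0.247 and an unadjusted p of 0.0342. DESeq2 gave -4.70 for the same comparison, with adjusted p = 0.00161, and over its 14 alternatives the adjusted p ran from 0.00161 to 0.976. With the b1 sets of 5 and 2 cells included, the value was -0.53 (edgeR adjusted p = 0.976). At D5 the value was -2.64 ± 1.97 (adjusted p = 0.655). At D1, D3 and D4 it was -0.23, 0.42 and -0.04, each with a standard error of 1.40 or more. Over all genes tested, 1.18% were called at D1, 3.14% at D3, 3.03% at D4, 4.73% at D5 and 6.6% at D7 against D0.

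The spread of Glis1 between prefixes was wider than the fitted differences of D1, D3 and D4 from D0. The b1 set held 2.08 times the CPM of the b2 set at D0 and 3.87 times at D3. From D0 to D3 the level went from 8.51 to 13.4 CPM in b1 and from 4.09 to 3.45 CPM in b2, so the prefixes differed in opposite directions. The D0 sets averaged 6.30 ± 3.13 CPM and the D3 sets 8.41 ± 7.01 CPM (SD, n = 2 sets each). Without the b1 D3 set the log2 fold change of D3 against D0 was -0.87, and without the b2 D3 set 1.08.

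In single cells, Glis1 was found in 213 of 461 cells (46.2%) at 1 TPM or more. The share was 70% of 20 cells in b1 D0 and 51.9% of 54 cells in b2 D0. It was 72.4% in b2 D1, 78.7% in b1 D3, 50% in b2 D3 and 57.6% in b3 D4. At D5 it was 13.9% of 79 b2 cells (exact Clopper-Pearson 95% interval 7.16 to 23.5%) and at D7 6.15% of 65 (1.70 to 15.0%). The D5 and D7 intervals lay below the intervals of all 6 earlier sets. Such intervals cover only the sampling of cells within 1 set. They do not cover the spread between sets, and D5 and D7 each had 1 tested set. The fibroblast marker sum was low and the pluripotent sum high in the same D5 and D7 sets, and their part in the Glis1 level was not tested.

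Thinning each cell to 300000 counts, which every cell exceeded, left this order of early and late sets in place. Thinned Glis1 was seen in 50% and 35.2% of the D0 cells, 56.9% at D1, 67.2% and 36.2% at D3, 49.2% at D4, 10.1% at D5 and 1.54% at D7. Cells of b2 D1 with Glis1 were deeper than those without, with a median of 2.58 against 1.59 M counts. In b1 D3 the depths lay the other way, 3.04 against 3.51 M.

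The highest Glis1 value of any cell was 163 TPM, in b1 D3, the set whose median cell was also highest at 26.2 TPM. Medians elsewhere were 2.37 and 1.5 TPM at D0, 4.09 TPM at D1, 1.21 TPM in b2 D3, 3.64 TPM at D4 and 0 TPM at D5 and D7. Single cells weighed on some sums. In b1 D0, 1 cell held 218 of the 474 Glis1 counts (46%), and in b2 D7 1 cell held 32 of 50 (64%).

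**Figure D1:**
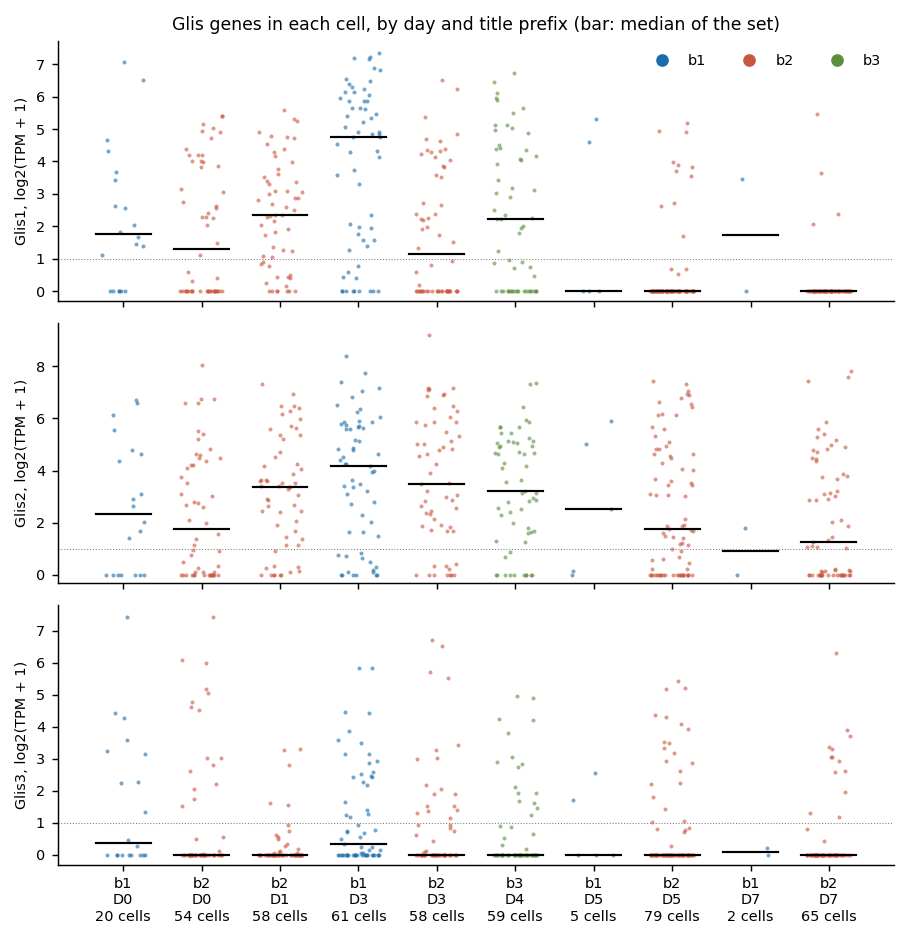
Each point is 1 cell, with log2(TPM + 1) on the vertical axis, the set on the horizontal axis and 1 panel for each gene; bars are set medians and the dotted line is 1 TPM. Glis1 medians are 0 TPM in b2 D5 and b2 D7 and 26.2 TPM in b1 D3, while Glis3 is at 0 TPM in the median cell of most sets.

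Among the 7 factors of the cocktail, Glis1 stood apart by its level. In mean TPM, which accounts for length, it was at 15.5 and 8.00 in the D0 sets, where the other 6 factors lay between 122 TPM (Kdm2b, a histone demethylase, in b1) and 1174 TPM (Esrrb, a nuclear receptor, in b1). It was at 8.42 TPM at D1, 38.1 and 8.64 TPM at D3, 14.4 TPM at D4, 2.19 TPM at D5 and 0.954 TPM at D7. The median of the other 6 was 14.8 times Glis1 in b1 D3 and 64.3 times in b2 D7, the extremes of the 8 tested sets. In b3 D4 alone among those sets, another factor was below Glis1: Map2k6, a MAP kinase kinase, at 4.07 TPM, found in 9 of 59 cells (15.3%).

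Several other cocktail genes were called by edgeR at D5 and D7, where Glis1 was not, although DESeq2 called Glis1 at D7; the difference between genes was not tested. At D5 against D0, 5 of the 7 fell and at D7 4 of the 7, with a list median log2 fold change of -2.64 and -3.06, beside 0.00 over all genes, of which 2.18% and 3.05% were called lower. Jdp2, a bZIP repressor, fell by 3.81 ± 0.59 at D5 and by 6.30 ± 0.68 at D7 (edgeR adjusted p = 1.74e-08 and 4.89e-18). Esrrb fell by 3.06 ± 0.52 and Map2k6 by 3.32 ± 0.56 at D7. The fitted Glis1 difference at D7 was -4.72 with a standard error of 2.23, against 0.52 to 0.68 for these 3 genes. Sall4, a zinc finger factor of pluripotent cells, was the only one of the 7 to be higher in mean TPM at D7 (752 TPM) than in either D0 set (186 and 156 TPM), which DESeq2 called and edgeR did not (1.21 ± 0.43, adjusted p = 0.0641). With the b1 or the b2 D3 set left out, the calls of Kdm2b (adjusted p up to 0.129 at D5 and 0.0948 at D7) and Nanog (up to 0.217 at D5) were lost.

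The Glis1 TPM rests on a short transcript length. RSEM divides counts by an estimated length per gene and cell, so the ratio of count to TPM gives that length once a factor per cell is set, here from genes with 1 annotated transcript. On held-out genes of that kind the implied length was 0.986 to 0.996 of the annotated one in the median of each length class. For Glis1 it could be read in 160 cells with 5 or more counts. The median was 673 bases (quartiles 544 and 946), 144 cells (90%) lay under 1500 bases and 10 cells at 2500 or more.

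Medians of the tested sets all lay at short lengths. They ran from 491 bases in b2 D7 (4 cells) to 827 bases in b2 D1 (29 cells). All 39 readable cells of b1 D3 and all 21 of b2 D0 were under 1500 bases. Cells near full length were 3 of 11 in b1 D0, 2 of 29 in b2 D1, 2 of 23 in b3 D4 and 2 of 10 in b2 D5, besides the only readable cell of b1 D7, at 2501 bases. For comparison, Esrrb moved from a median of 1316 and 1327 bases in the D0 sets to 4194 bases in b2 D7. Which Glis1 transcript or added sequence the reads came from cannot be read from gene totals.

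Glis2 lengths lay near its full model, while Glis3 lengths were spread between its shorter models and its longest one. Glis2 had a median of 3503 bases in 303 cells, with 23 cells under 1500, beside a full transcript of 3619 bases. Glis3 had a median of 2800 bases with quartiles of 1695 and 7457, with 22 cells under 1500 and 38 over 6000 bases, near its longest model of 7514. By TPM, Glis1 therefore equalled Glis2 in b1 D3 (ratio 1.00), whereas with counts divided by the full length of each gene the ratio in that set was 0.192. In b2 D7 these ratios were 0.0551 and 0.00749.

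**Figure D2:**
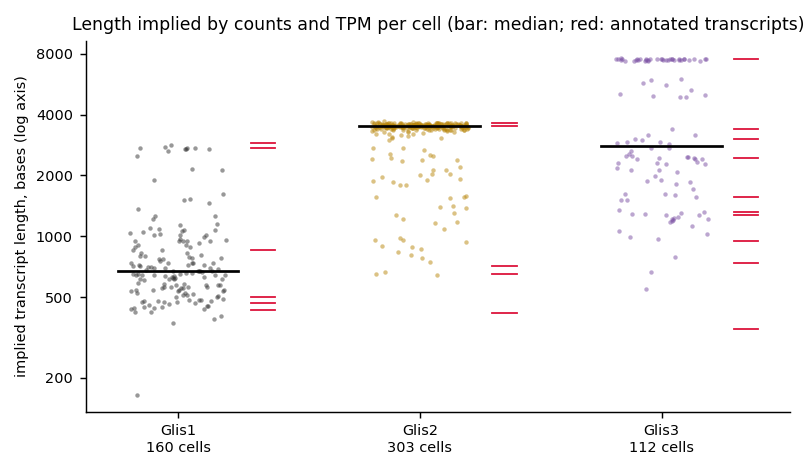
Each point is 1 cell with 5 or more counts of the gene, at the transcript length in bases that its count and TPM imply (log axis); black bars are medians and red ticks the lengths of annotated transcripts. Glis1 cells gather around 673 bases, Glis2 cells around 3503 bases and Glis3 cells spread up to its longest model of 7514 bases.

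Glis2 had the highest mean TPM of the family in the tested sets, with Glis1 level with it in b1 D3, and its CPM varied least between sets. It stood at 37.8 CPM in b1 D0 and 57.4 CPM in b2 D0. At D1 it was at 64.2 CPM, and at D3 at 86.7 CPM (b1) and 84.6 CPM (b2), its highest values. It was at 45.3 CPM in b3 D4, 57.3 CPM in b2 D5 and 39.7 CPM in b2 D7, within the range of the D0 sets. The D3 set had 2.29 times the D0 level in b1 and 1.47 times in b2, and the small b1 sets were lower, at 16.2 CPM (D5) and 3.14 CPM (D7).

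The D3 difference of Glis2 did not pass the test. The log2 fold change was 0.85 ± 0.52 (edgeR, adjusted p = 0.570). The D3 sets averaged 85.7 ± 1.44 CPM and the D0 sets 47.6 ± 13.8 CPM (SD, n = 2 sets each). Against D0 it was 0.43 at D1, -0.07 at D4, 0.27 at D5 and -0.26 at D7, none called. In mean TPM the D3 sets were again the highest, with 20.5 and 19.4 at D0, 22.3 at D1, 38.1 and 42.8 at D3, 22.5 at D4, 22.9 at D5 and 17.3 at D7. Its exons share 455 bases (10.4%) with those of Pam16, a mitochondrial import gene on the opposite strand, so some reads of these genes cannot be told apart if strand was not used; Pam16 was at 4.93 to 33.3 CPM.

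Glis2 was found in 319 of 461 cells (69.2%). Shares were 65% and 55.6% at D0, 79.3% at D1, 75.4% and 81% at D3, 79.7% at D4, 62% at D5 and 56.9% at D7. After thinning, at 1 or more counts, they ranged from 50.8% (b2 D7) to 79.7% (b3 D4). The intervals of the b2 D0 set (41.4 to 69.1%) and the b2 D3 set (68.6 to 90.1%) overlapped by less than 1 percentage point. The highest cell, at 591 TPM, was in b2 D3.

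**Figure D3:**
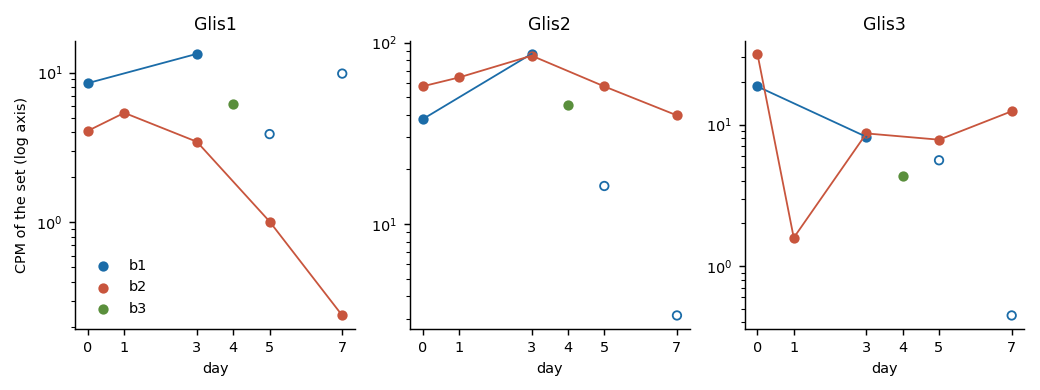
CPM of each set (log axis) against day, with 1 panel for each gene and colours for prefixes. Open symbols are the b1 sets of 5 and 2 cells that entered no test and whose CPM was not scaled by TMM. Lines join tested sets of 1 prefix. Glis1 is lowest at D5 and D7 in b2, Glis2 peaks at D3 in both prefixes, and Glis3 is lowest at D1 among the tested sets.

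Glis3 was highest at D0 and lowest at D1 among the tested sets. It stood at 18.6 CPM in b1 D0 and 31.6 CPM in b2 D0, above all 6 later tested sets. At D1 it was at 1.59 CPM, 5.02% of the D0 level of the same prefix. It was at 8.18 CPM (b1) and 8.66 CPM (b2) at D3, 4.35 CPM at D4, 7.82 CPM at D5 and 12.4 CPM at D7. The D3 sets were alike, 8.42 ± 0.334 CPM (SD, n = 2), and below the D0 sets at 25.1 ± 9.21 CPM. The b1 sets outside the tests held 5.59 CPM (D5) and 0.448 CPM (D7, 1 count).

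No difference of Glis3 from D0 was called by edgeR. The log2 fold change at D1 was -3.98 ± 1.52, with an unadjusted p of 0.00881 and adjusted p = 0.305. DESeq2 gave -3.99 at D1 (adjusted p = 2.55e-05) and -2.50 at D4 (adjusted p = 0.0179), where edgeR gave -2.53 ± 1.39 (adjusted p = 0.568). Over all alternatives the adjusted p ran from 2.55e-05 to 1 at D1 and from 0.0179 to 1 at D4. At D3, D5 and D7 the edgeR values were -1.58 ± 1.02, -1.68 ± 1.33 and -1.02 ± 1.28. All 5 values against D0 were below 0, but they share the same 2 D0 sets and are not separate observations. Without the 18 cells with fewer than 7000 genes, of which b2 D0 held 9, they shrank to -3.22 at D1, -0.80 at D3, -1.79 at D4, -0.94 at D5 and -0.24 at D7.

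Glis3 was found in the fewest cells of the family. It was found in 122 of 461 cells (26.5%), in 45% and 29.6% at D0, 8.62% at D1, 37.7% and 31% at D3, 27.1% at D4, 25.3% at D5 and 20% at D7. The D1 interval (2.86 to 19%) lay apart from that of b1 D0 (23.1 to 68.5%) and overlapped that of b2 D0 (18 to 43.6%). After thinning, at 1 or more counts in place of 1 TPM, the D1 share was 13.8% (6.15 to 25.4%). This interval overlapped that of b1 D0 as well, and the other tested sets lay between 16.9% and 45%. The part of depth and that of the changed rule were not tested. The 5 cells with Glis3 at D1 held a median of 0.909 M counts, against 2.55 M in the other 53. A single cell held 43.7% of the counts in b1 D0, 37.1% in b2 D0 and 70.2% in b2 D7. Without the highest cell of each gene and set, D7 against D0 moved from -1.02 to -2.17 and D1 against D0 from -3.98 to -4.20.

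**Figure D4:**
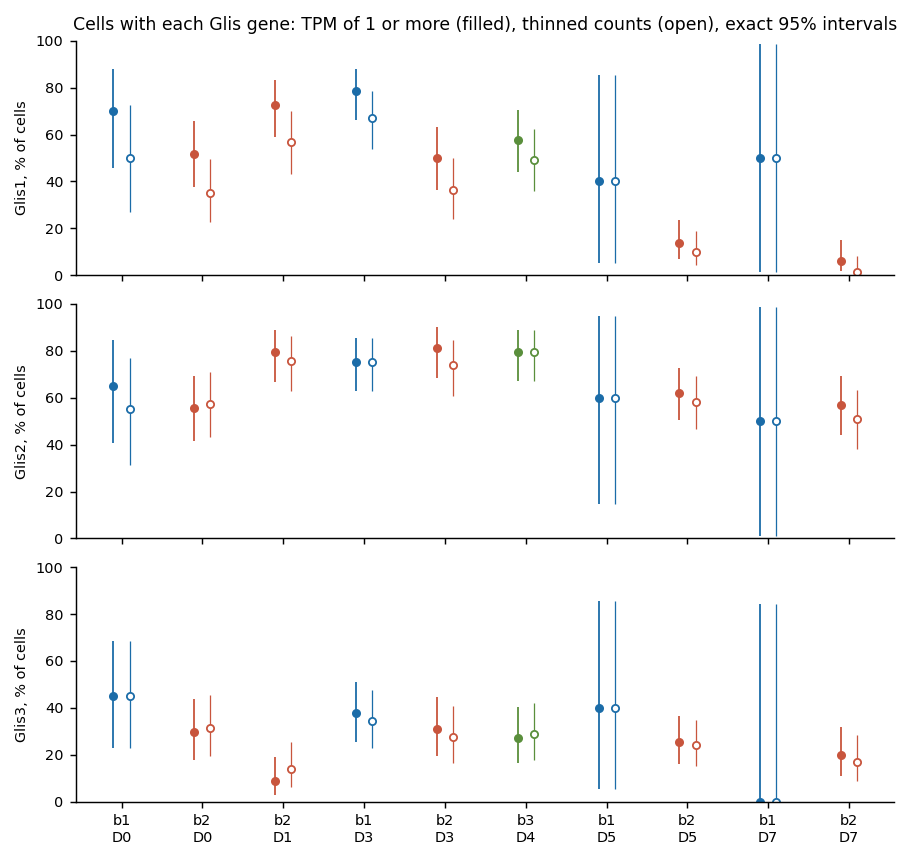
Share of cells (%) with each gene per set, with exact 95% intervals and colours for prefixes as in the other plots. Filled symbols are at 1 TPM or more, open ones at 1 or more counts after thinning to 300000 counts. Glis1 drops to 13.9% and 6.15% in b2 D5 and b2 D7, and Glis3 is at 8.62% in b2 D1.

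Between later days the family gave no called difference either. D5 against D3 was -3.05 ± 2.02 for Glis1, -0.58 ± 0.64 for Glis2 and -0.11 ± 1.23 for Glis3, where 1.71% of all genes were called. D7 against D5 was -2.08 ± 2.07, -0.53 ± 0.73 and 0.67 ± 1.42, where 0.554% of all genes were called. The median of all genes was -0.14 for D5 against D3 and 0.11 for D3 against D0, and 0 in the other comparisons.

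**Figure D5:**
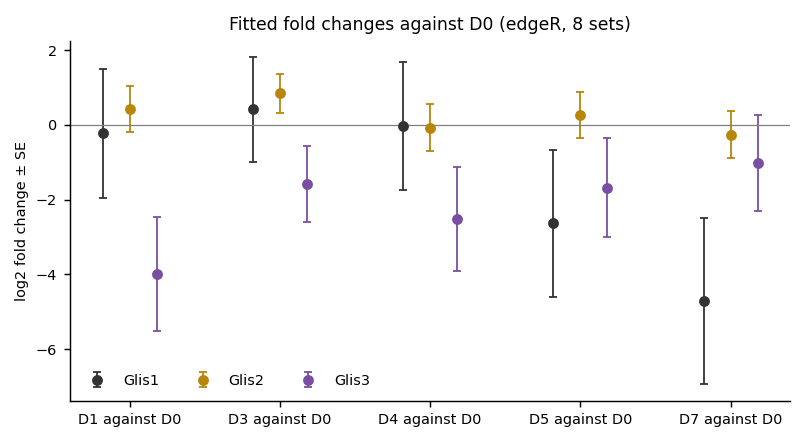
Log2 fold change of each gene against D0 from the edgeR fit on 8 sets, with bars for the standard error. The bars of Glis1 are the widest, the Glis2 values lie between -0.26 and 0.85, and the Glis3 values are all below 0, from -3.98 at D1 to -1.02 at D7. The values of a gene share the same D0 sets.

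Across the 8 tested sets, log2(CPM + 1) of Glis1 went with day at Pearson r = -0.69 (exact permutation p = 0.0602, adjusted over the 3 genes 0.181) and Spearman rho = -0.55 (p = 0.165, adjusted 0.494). For Glis2 r was -0.13 (exact permutation p = 0.761) with rho = -0.13, and for Glis3 r was -0.19 (exact permutation p = 0.650) with rho = -0.36. Without the b2 D7 and b1 D0 sets the Glis1 value was r = -0.30, and without b2 D7 and b2 D0 it was -0.55, so its size rests on these end sets. Within the 5 b2 sets, given with no test, r was -0.95, -0.55 and 0.0086 for Glis1, Glis2 and Glis3. The b1 prefix had 2 tested sets and b3 1, too few for a value.

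Some cells held more than 1 Glis gene. Of all 461 cells, 69 had none of the 3, 178 had 1, 166 had 2 and 48 had all 3. All 3 were found in 14 of 61 b1 D3 cells, 11 of 59 b3 D4 cells, 4 of 79 b2 D5 cells and none of 65 b2 D7 cells, which by counting error alone allows up to 4.62% of cells in which all 3 are found and does not limit the share that express them. Glis2 was present in 75.6% of the cells with Glis1 and in 63.7% of those without it, pooled over sets that differ in both genes. Within sets the order was not uniform: 60.7% against 50% in b2 D0, but 72.9% against 84.6% in b1 D3. Glis3 was present in 43.8% of b1 D3 cells with Glis1 and 15.4% of those without, and in 35.7% against 66.7% in b1 D0.

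Beside the pluripotency factor Pou5f1, which was found in 51 of 65 b2 D7 cells, Glis1 was present in 3 of those 51 cells, Glis2 in 30 and Glis3 in 12. Of all 65 cells of that set, 4 held Glis1, 37 held Glis2 and 13 held Glis3. In b2 D3, 11 of the 27 Pou5f1 cells held Glis1, beside 29 of all 58 cells, and 25 held Glis2, beside 47 of all 58. In b1 D3 all 6 Pou5f1 cells held Glis1, beside 48 of all 61. In b3 D4, 12 of 24 Pou5f1 cells held Glis1 and 20 held Glis2, beside 34 and 47 of all 59. Of the 10 b2 D7 cells with the collagen gene Col1a1, none held Glis1, 6 held Glis2 and 2 held Glis3, beside 4, 37 and 13 of all 65.

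Among the relatives of the Gli and Zic families, Zic5, a zinc finger factor of the early embryo, was at 1.11 and 4.21 CPM in the D0 sets, 4.22 CPM at D1, 11.8 and 7.85 CPM at D3, 11 CPM at D4, 24.8 CPM at D5 and 42.6 CPM at D7. The D1 set was level with b2 D0, and the tested sets from D3 on were above both D0 sets. Zic5 rose by a log2 fold change of 4.0 ± 1.14 at D7 (edgeR adjusted p = 0.0110), a call lost without the b1 D0 set (0.0802). The pluripotent marker sum was also highest in b2 D7 among the tested sets, and its part in the Zic5 level was not tested.

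Gli3, which mostly represses Hedgehog targets, was at a mean of 37.2 and 9.96 TPM in the D0 sets and 24.7 TPM in b2 D7. Its D7 against D0 value was 0.09 ± 0.53. Gli2, the main activator, ranged from 0.21 to 3.20 TPM over the tested sets and passed no edgeR test, while DESeq2 called it at D1, the set with its lowest level. Gli1, which is itself a Hedgehog target, was at or under 0.10 TPM in every set. Glis2 lay between 17.3 and 42.8 TPM on this scale.

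Of the Hedgehog pathway genes, Ihh, a ligand, was at 0 CPM in both D0 sets, 3.94 CPM at D1 (2 of 58 cells), 3.42 CPM at D5 (1 of 79 cells) and 5.79 CPM at D7 (3 of 65 cells). edgeR called it at D5 and D7, but both calls were lost without the highest cell (adjusted p = 0.880 and 0.248), and 5 and 4 of the single sets left out ended them. Hhip, which binds the ligands, fell by 5.22 ± 1.42 at D7 (adjusted p = 0.00653; 0.0939 without b2 D0). Sufu, which also binds Glis proteins, was at 38 and 27 CPM at D0, 4.88 CPM at D1, 41.7 and 31.5 CPM at D3, 13.9 CPM at D4, 30.8 CPM at D5 and 54.7 CPM at D7, lowest at D1, and passed no edgeR test (-2.73 ± 0.93 at D1, adjusted p = 0.161).

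None of the 11 partner proteins and none of the 15 cilium and nephronophthisis genes was called by edgeR against D0 on any day. Their list medians stayed between -0.13 and 0.31. Over all genes only 2.24% of such tests were called higher and 1.5% lower, so an absence of calls says little about lists of this size. Before adjustment, 5 of the 55 edgeR tests of partners and 1 of the 75 of cilium genes were under 0.05, beside 11.8% of all such tests over all genes. DESeq2 called Sufu, lower at D1, and Rpgrip1l, a cilium transition zone gene, at D3. Of 12 reported Glis1 targets, 3 rose at D3, 4 at D4 and 3 at D5 and D7, while 2 fell at D5 and D7. Over all genes 2.1%, 2.07%, 2.56% and 3.55% rose on these days, and 2.18% and 3.05% fell at D5 and D7. At D7 Lin28a, Wnt3 and Wnt8a were higher and Esrrb and Wnt10a lower. Lin28a, an RNA-binding protein of pluripotent cells, was at 0 CPM in both D0 sets and at 167 CPM in b2 D7 (edgeR adjusted p = 3.44e-47). This list shares Nanog and Esrrb with the cocktail and Lin28a with the pluripotent markers.

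Among 11 tested genes reported as Glis2 or Glis3 targets, 1 rose at D1, D3 and D4 (Ins2 each time). Of the same 11, 1 fell at D5 (Ccnd2) and 3 at D7 (Ins2, Ccnd2 and Snai1). Over all genes 0.934%, 2.1% and 2.07% rose at D1, D3 and D4, and 2.18% and 3.05% fell at D5 and D7. Ins2, which encodes insulin, was at 0.018 CPM in b1 D0 and 30.6 CPM in b2 D0, at 380 CPM at D1, where 57 of 58 cells held it, at 133 and 105.7 CPM at D3, 532 CPM at D4, 39.5 CPM at D5 and 0.616 CPM at D7. Whether Ins2 went with Glis3 over the sets was not tested. edgeR called Ins2 higher at D1, D3 and D4 and lower at D7, but DESeq2 called none of these. Without the b2 D0 set the D7 value was 5.03 in place of -4.64. Ccnd2, a cyclin, was at 1167 and 1169 CPM at D0 and fell by 2.81 ± 0.51 at D5 and by 2.33 ± 0.50 at D7 (adjusted p = 4.53e-06 and 0.000152).

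Genes were ranked by the correlation of log2(CPM + 1) with each Glis gene over the 8 tested sets, among 8578 genes with a mean of 10 CPM or more. Closest to Glis1 was Lipa, a lysosomal lipase, with r = 0.95, followed by Ythdf3, Wdr37, Cib2 and Kdelr3. Lipa was at 185 CPM in b1 D3 and 17.3 CPM in b2 D7, its extremes and those of Glis1. Closest to Glis2 was Dr1, a transcription repressor, with r = 0.97, then Sgsm3, Stard4, Gbe1 and Zdhhc5. Closest to Glis3 was Chac1, a glutathione-degrading enzyme, with r = 0.95, then Pim3, Srsf1 and Srfbp1. Chac1 was at 39.8 CPM in b2 D0 and 0.905 CPM in b2 D1. The points share libraries and scaling, 31, 12 and 10 genes had r over 0.9, and no p is given.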

How the data were processed

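Single-cell RNA-seq values of 461 cells were used, as 2 tables of the whole series. The authors deposited expected counts per gene and cell, which RSEM 1.2.22 estimates by sharing reads among transcripts, and TPM from the same tool, per the submitters' processing notes, which also name bcl2fastq; the aligner, the genome build and the gene annotation behind them were not given in the sources used here. Of the expected counts, 9.11% were not whole. Cells held 0.319 to 7.00 M counts (median 2.50), and each table column was matched to a cell by its title. Symbols were found for 31426 of 31673 gene IDs.

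For each set the expected counts of its cells were added up and rounded, since cells are not replicates. The 8 sets with 10 or more cells were fitted by day with edgeR 4.0.16 in R 4.3.3 (TMM, filterByExpr, quasi-likelihood F test, 2 residual degrees of freedom, Benjamini-Hochberg over 22378 genes, threshold 0.05), and the 5 days were compared with D0, D5 with D3 and D7 with D5. The fit was tried on simulated counts for D3 against D0 only, the comparison with 2 sets on each side. Comparisons with days of 1 set were not covered by it. DESeq2 1.42.0 and limma 3.58.1, on log2(mean TPM + 1), were alternatives. A gene was found in a cell at a TPM of 1 or more, and in a thinned cell at 1 or more counts. Trends over days used an exact two-sided permutation test. Implied lengths were calibrated per cell on genes with 1 GENCODE M21 transcript, with 5 or more counts of the gene read. Doublets were not called, and no cell was removed.

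The named genes were the 3 Glis genes, members of fixed lists (relatives, Hedgehog pathway, partners, reported targets, cilium genes, cocktail), and the 5 genes most like each Glis gene among those with a mean of 10 CPM or more. The members and lists were chosen with earlier results of these data known. Some results, among them counts over the Gli and Zic relatives and the Hedgehog genes, are not reported here.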

Additional observations from a re-analysis of the deposited data

Results flagged for a closer look

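Glis1 in the b1 set of D7, which entered no test, stood at 9.86 CPM, above the higher of the D0 sets (8.51 CPM). The D0 value was scaled by TMM and the b1 D7 value was not. The b1 D7 value is also from very few cells. That b1 D7 value rests on 22 counts in 1 of 2 cells. The b2 set of the same day, with 65 cells, was at 0.239 CPM.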

How the results depend on the processing

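Of 291 alternative values of the Glis fold changes, 267 kept their direction and side of the threshold, 3 passed the threshold and 21 changed direction; the causes were not tested. DESeq2 gave the 3 that passed, -4.70 for Glis1 at D7, -3.99 for Glis3 at D1 and -2.50 for Glis3 at D4. With all 10 sets, direction changed for Glis1 at D4 (0.027) and D7 against D5 (0.80), Glis2 at D4 (0.0077) and D5 (-0.36) and Glis3 at D7 against D5 (-0.052). Without the highest cell of each gene and set it changed for Glis1 at D1 (0.024) and D4 (0.18), Glis2 at D4 (0.020) and Glis3 at D5 against D3 (0.073) and D7 against D5 (-0.58). With limma it changed for Glis1 at D4 (0.34), Glis2 at D4 (0.17) and Glis3 at D7 against D5 (-0.28). With sets left out in turn, values ran from -0.66 to 0.40 for Glis1 at D1, -0.87 to 1.08 at D3 and -0.47 to 0.59 at D4, for Glis2 from -0.34 to 0.26 at D4, -0.0014 to 0.60 at D5 and -0.53 to 0.067 at D7, and for Ins2 at D7 from -5.63 to 5.03.

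With the prefix as replicate block, Glis1 at D1 was 0.60 and no other Glis direction or call changed. Deviations of the b1 sets from the day means correlated at 0.08 between D0 and D3 over all genes tested, with only 2 pairs, and the prefix was not taken as a pairing; D4 could not enter this fit, and the only set of a day could not be left out of a comparison with that day. Over the b2 sets alone, the correlation with day was -0.95 for Glis1, -0.55 for Glis2 and 0.0086 for Glis3, and without b2 D7 and b2 D0 it was 0.28 for Glis2.

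Counts of called genes moved most. For D1, D3, D4, D5 and D7 against D0, D5 against D3 and D7 against D5, edgeR called 265, 703, 679, 1059, 1477, 383 and 124 genes. DESeq2 called 716, 1559, 1233, 2149, 2881, 1006 and 472, and all 10 sets left 1, 37, 33, 158, 352, 12 and 18. The block left 3, 158, 274, 419, 19 and 16 (no D4 value), limma 582 at D7 and 0 elsewhere, and D7 against D5 had 62 without the highest cells. Without the b1 D3 set there were 145, 338, 439, 713, 941, 161 and 69, without the b2 D3 set 150, 261, 421, 691, 918, 217 and 69. Without the b1 or b2 D0 set, D5 against D3 had 680 or 690, D7 against D5 had 220 or 221, and D1 had 440 without b2. Of 30 calls of named list genes, an alternative chosen after seeing the data, all 10 sets ended 21, limma 26, DESeq2 6 and the block 14 of 26. Shares of cells moved in 27 of 120 alternatives, 16 of them with a threshold of 5 TPM.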
